A study of Mus musculus with 5 samples.

Results

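The DNA replication licensing genes are 10 genes whose products prepare chromosomes for replication: the helicase subunit genes Mcm2, Mcm3, Mcm4, Mcm5, Mcm6 and Mcm7, the loading factor genes Cdc6 and Cdt1, the inhibitor gene Gmnn and the helicase activator gene Cdc45. Members were taken by gene symbol, and all 10 were found among the 32285 rows of the expression table. RNA-seq libraries were prepared with Smart-seq2, a method that primes on poly(A) tails, from mouse embryos at the 2-cell stage, with 3 PNMC libraries and 2 Control libraries. PNMC embryos spent 24 h of culture in KSOM, an embryo medium, containing PNMC at 25 nM. What PNMC stands for is not stated in the labels. Control embryos were cultured for the same time in KSOM with an equal volume of the solvent DMSO. In both groups, eggs came from females of 6 to 9 weeks given 10 IU each of PMSG and hCG and were fertilised in vitro for about 6 h with sperm of males of 12 to 16 weeks, and fertilised eggs were assigned to the groups at random. The labels give no strain, no genotype, no number of embryos per library and no statement that libraries came from separate cultures, so the p-values rest on the variation among these 5 libraries, and that variation may be technical.

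Licensing marks each stretch of DNA for a single round of copying. The origin recognition complex, Cdc6 and Cdt1 load rings made of the Mcm2 to Mcm7 proteins onto DNA before S phase. Geminin, the product of Gmnn, binds Cdt1 once S phase has begun and so prevents a further round of loading, and Cdc45 joins the loaded ring together with the GINS proteins to form the active helicase. The early embryo starts with maternal stores of many of these transcripts and, in the mouse, the major wave of transcription from the embryo's own genome comes at the 2-cell stage.

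The deposited values are a normalised signal of unstated unit, with an unknown read depth. Totals were 446010, 452811 and 454548 in the PNMC libraries, against 446466 and 447155 in the Control libraries. PNMC libraries listed 17408 to 17608 genes above 0, against 17635 in Control 1 and 18595 in Control 2. Whether the values are scaled to gene length could not be established, so differences in level between genes may reflect their length. This also limits the comparisons below with genes of like level, which were chosen by mean signal. The embryo identity was checked with marker genes. All 11 genes of the 2-cell programme and all 10 oocyte transcripts passed the filter, and the summed 2-cell level was 1242 to 1495 in PNMC and 1259 to 1374 in Control libraries. The summed oocyte level was 11432 to 12097 in PNMC and 10665 to 11027 in Control libraries. Most of it came from Tcl1, which averaged 6458 in PNMC and 5588 in Control libraries, and Btg4, which averaged 3611 and 3486. The oocyte genes Zp3, Gdf9, Bmp15, Nlrp5, Ooep and Npm2 had log2 changes below 0, so the sum does not speak for the whole list. Cumulus markers summed to 4.75 to 6.43 in PNMC and 7.43 to 7.69 in Control libraries, with 4 of 10 at 0 in every library (Amh, Foxl2, Ptx3 and Inhba). Has2, Tnfaip6, Star and Cyp19a1 were above 0 in every library, and Cyp19a1 averaged 3.36 in PNMC and 3.21 in Control libraries. Blood markers, of which 1 of 7 was at 0 in every library, summed to 10.6 to 13.4 in PNMC and 14.6 to 25.7 in Control libraries. The summed sperm markers were 4.54 to 6.89 in PNMC and 4.22 to 4.58 in Control libraries with 3 of 7 at 0 in every library, and those of the oviduct were 45.1 to 84.8 in PNMC and 53.8 to 55.5 in Control libraries with 1 of 5 at 0, nearly all of it from Epcam, an epithelial gene that averaged 57.4 in PNMC and 53.7 in Control libraries. The cumulus and blood sums of every PNMC library thus lay below those of both Control libraries, and the oocyte sums lay above them. The part of these differences in the results was not tested.

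All 10 licensing transcripts were present in every library, and none passed the test for a difference between PNMC and Control embryos. In limma's moderated test across 12734 genes, 0 of the 10 members passed a Benjamini-Hochberg adjusted p of 0.05, where 0 of all genes tested passed (0%). No member (0 of 10) had an unadjusted limma p under 0.05, while 636 genes did, or 4.99% of all tested. The lowest unadjusted limma p among the members was 0.149, for Mcm3, and the adjusted p was 0.993 for each of the 10. All libraries carry the same label of embryo stage, and their totals of normalised signal were similar. The values thus give the level of a transcript relative to others, and the amount of RNA per embryo or per cell was not measured. By mean log2 value, 5 members were higher and 5 lower in PNMC embryos, where 43.1% of all genes were higher and 56.9% lower. The median log2 change of the members was 0.02, against -0.05 over all genes tested. The PNMC values lay entirely on one side of the Control values in 1 of 10 members, while this held for 19.9% of all genes and for 15.7% of the 3302 genes whose mean level lies in the members' range of 20.5 to 317.

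**Figure D1:**
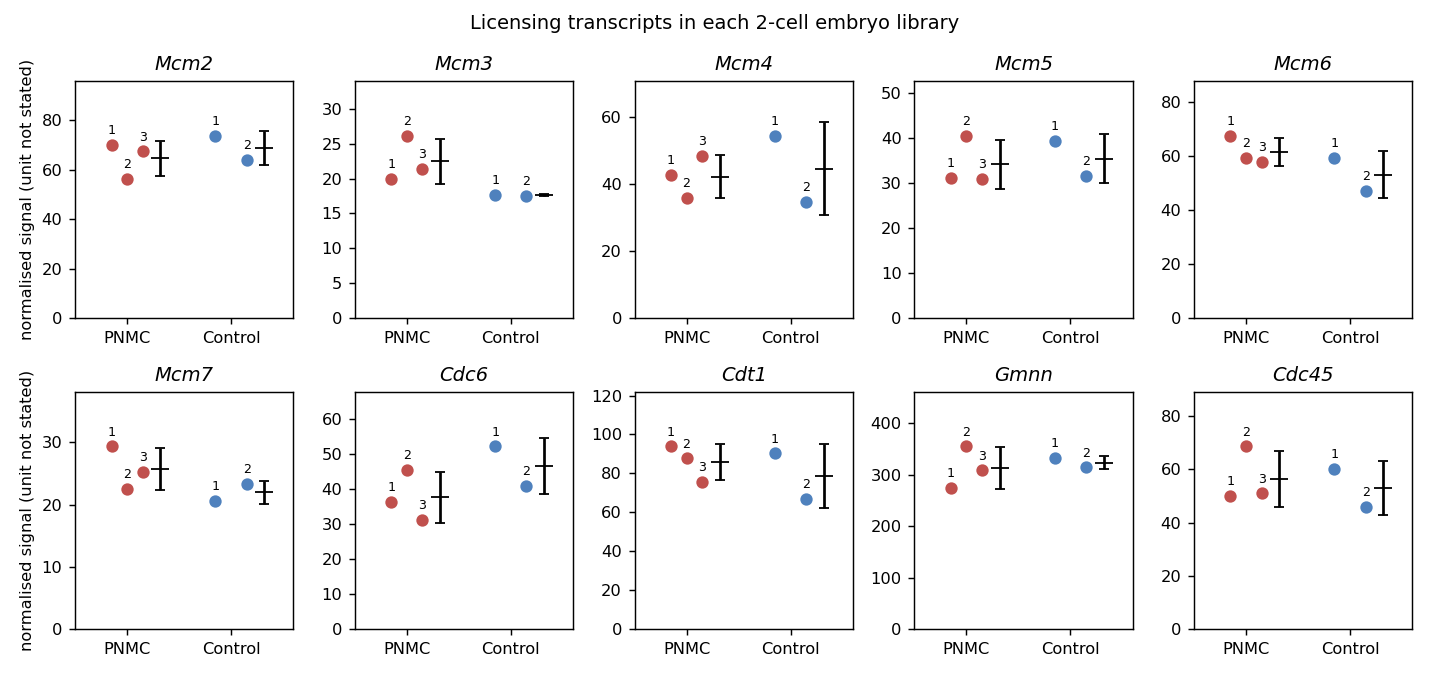
Normalised signal (vertical axis, unit not stated, starting at 0) of each licensing gene in 3 PNMC libraries (red) and 2 Control libraries (blue); numbers mark the replicate, and the black bar is the mean with its SD. PNMC and Control values overlap in every panel but that of Mcm3, where all 3 PNMC values (19.9, 26.1 and 21.4) lie above both Control values (17.7 and 17.6).

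Cdc6, the ATPase that helps the origin recognition complex recruit the helicase, had signals of 36.3, 45.4 and 31.1 in PNMC libraries 1, 2 and 3, against 52.2 and 40.9 in Control libraries 1 and 2. PNMC 2 lay between the Control values and the other PNMC libraries lay below both. Cdc6 averaged 37.6 ± 7.24 in PNMC (SD, n = 3) and 46.5 ± 7.95 in Control libraries (SD, n = 2), a log2 change of -0.31 (SE 0.204). This was the most negative change among the members, and its 95% interval ran from -0.74 to 0.13. With 1 library left out it ranged from -0.48 without Control 2 to -0.13 without Control 1.

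Cdt1, the partner that brings the helicase to the origin, had signals of 93.8, 87.7 and 75.7 in PNMC libraries, against 90.2 and 66.8 in Control libraries. The 2 groups interleaved, with Control 1 between the highest PNMC libraries and Control 2 below all of them. Cdt1 averaged 85.7 ± 9.22 in PNMC and 78.5 ± 16.6 in Control libraries, a log2 change of 0.14 (SE 0.173). Without Control 2 the change was -0.08, so its sign rests on that library. Cdt1 overlaps Gm20388 on the same strand in the GENCODE annotation, so reads of the 2 genes could not be told apart where they overlap.

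Gmnn, which encodes the Cdt1 inhibitor geminin, had signals of 273.8, 355.2 and 308.5 in PNMC libraries and 332.9 and 314.6 in Control libraries. Both Control values fell inside the PNMC range. Gmnn averaged 312.5 ± 40.9 in PNMC and 323.7 ± 12.9 in Control libraries, a log2 change of -0.06 with a 95% interval from -0.34 to 0.22, the narrowest interval of the 10 members. The signal of Cdt1 divided by that of Gmnn, which sets the loader against its inhibitor, was 0.343, 0.247 and 0.245 in PNMC libraries and 0.271 and 0.212 in Control libraries. These ratios overlapped too. As ratios of the same pair of genes they can be compared between libraries, whatever the scaling to length.

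Among the helicase subunits, Mcm3 had the most positive change. Its signal was 19.9, 26.1 and 21.4 in PNMC libraries, against 17.7 and 17.6 in Control libraries, so every PNMC library lay above both Control libraries, a position shared by 7.97% of all genes tested. Mcm3 averaged 22.5 ± 3.24 in PNMC and 17.6 ± 0.0906 in Control libraries, a log2 change of 0.33 (SE 0.212, 95% interval -0.13 to 0.78), which did not pass.

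Mcm6, another subunit of the ring, had signals of 67.4, 59.1 and 57.8 in PNMC libraries and 59.1 and 46.9 in Control libraries. PNMC 2 exceeded Control 1 only narrowly, PNMC 3 lay below Control 1, and Control 2 was the lowest. The log2 change of Mcm6 was 0.22 (SE 0.173), and 0.05 without Control 2. Mcm7, a subunit that can form a helicase core in vitro with Mcm4 and Mcm6, had signals of 29.3, 22.6 and 25.2 in PNMC libraries and 20.6 and 23.3 in Control libraries. PNMC 2 lay between the Control values and the other PNMC libraries lay above both, with a log2 change of 0.21 (SE 0.205), and 0.12 without PNMC 1. In the GENCODE annotation Mcm7 overlaps Cops6 and Ap4m1 on the opposite strand, and Smart-seq2 keeps no strand, so reads of these genes could not be told apart where they overlap.

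Mcm2, Mcm4 and Mcm5 were close to the same mean in both groups. Mcm2, which also binds histones, had signals of 69.9, 56.4 and 67.4 in PNMC libraries and 73.7 and 64.0 in Control libraries, with a log2 change of -0.09 (SE 0.167). Mcm4, which in human and yeast cells is a main substrate of the kinase that triggers origin firing, had signals of 42.6, 35.7 and 48.3 in PNMC libraries and 54.3 and 34.7 in Control libraries. The 2 Control libraries were the extremes for Mcm4, with all PNMC libraries between them, and its log2 change of -0.05 became 0.26 without Control 1 and -0.37 without Control 2. Mcm5, which forms with Mcm2 the gate through which DNA enters the ring, had signals of 31.1, 40.5 and 30.9 in PNMC libraries and 39.3 and 31.6 in Control libraries. PNMC 2 and Control 1 were high for Mcm5 and the other 3 libraries lay within about 1 unit of each other, and its log2 change was -0.05 (SE 0.200).

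Cdc45, the activator that joins the ring when an origin fires, had signals of 49.98, 68.7 and 51.0 in PNMC libraries and 60.3 and 45.9 in Control libraries. As for Mcm5, PNMC 2 and Control 1 were the high libraries. Cdc45 averaged 56.6 ± 10.5 in PNMC and 53.1 ± 10.2 in Control libraries, a log2 change of 0.09 (SE 0.195). Its sign also rests on single libraries, since the change was -0.11 without Control 2 and -0.06 without PNMC 2. Cdc45 overlaps Ufd1 on the opposite strand in the GENCODE annotation.

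The members varied between libraries only partly as a single block. Members above the midpoint of the group means numbered 5, 7 and 5 in PNMC libraries 1, 2 and 3, and 8 in Control 1. Mcm5, Cdc6, Gmnn and Cdc45 each had their highest values in PNMC 2 and Control 1, a pair of libraries that held the highest values of 11.3% of all genes tested and of 16% of the genes of like level. Mcm2 and Cdt1 were highest in Control 1 and PNMC 1. Control 2 lay below the midpoint of the group means in all 10 members and was the lowest library in 5 of them, Mcm3, Mcm4, Mcm6, Cdt1 and Cdc45. How many of all genes lay likewise above or below the midpoint, or were lowest in Control 2, was not counted. The median deviation of all genes from that midpoint was 0.05 in Control 2. That library also listed the most genes and had the highest median signal over the genes tested, 7.48, against 6.77 to 6.91 in PNMC libraries and 7.09 in Control 1. Scaling every library to its median moved the median log2 change of all genes to 0.03. After it, 8 members and 53.9% of all genes were higher in PNMC, the log2 changes of Mcm4, Mcm5 and Gmnn were 0.03 each, and 0 members passed the threshold.

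**Figure D2:**
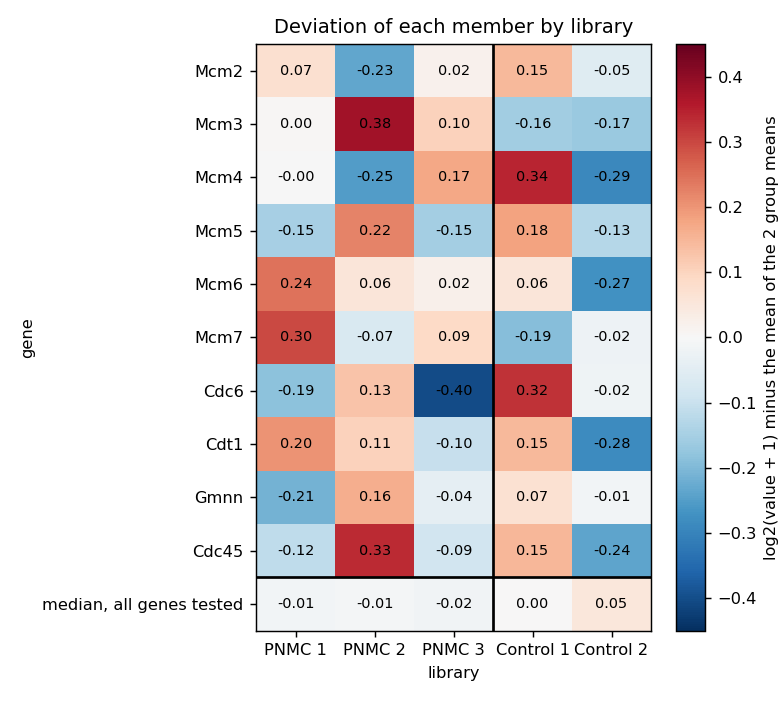
Deviation of each member's log2(value + 1) from the midpoint of the PNMC and Control means (colour and printed value), for each gene (rows) and library (columns), with the median of all genes tested in the last row. Control 2 is negative in all 10 members while the median of all genes there is 0.05, and Mcm5, Cdc6, Gmnn and Cdc45 are positive in PNMC 2 and Control 1 alone.

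Ratios between members within a library were compared because they do not depend on the scaling of a library. Of the 45 ratios between 2 members, 11 did not overlap between PNMC and Control libraries, or 24.4%, while this held for 16.6% of the 5449951 ratios between genes of like level. The 45 ratios share their 10 genes and are not independent. Of the 11, 8 involve Cdc6 or Mcm3. These are the members with the largest changes in either direction, so their ratios are the most prone to separate the groups. The ratio of Cdc6 to Mcm6 was 0.539, 0.769 and 0.539 in PNMC libraries, against 0.883 and 0.872 in Control libraries, so all 3 PNMC libraries were lower. Cdt1 divided by Cdc6, the 2 loading factors, was 2.58, 1.93 and 2.43 in PNMC libraries and 1.73 and 1.63 in Control libraries, with PNMC higher throughout. Mcm3 divided by Mcm2 was 0.285, 0.463 and 0.318 in PNMC libraries and 0.240 and 0.274 in Control libraries. PNMC 1 exceeded Control 2 there by only 0.01. These ratios were chosen after their values were seen and were not tested.

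The SD of log2 values within groups had a median of 0.191 over the members and 0.187 over the 3302 genes of like level, so the members were about as variable as other genes. The 95% interval of the log2 change lay within 1 unit either way in all 10 members, as it did in 61.4% of all genes and in 98.2% of genes of like level. The interval that reached highest was that of Mcm3, at a 1.72-fold higher signal in PNMC, and the one that reached lowest was that of Cdc6, at 0.597 of the Control signal, both on the log2(value + 1) scale.

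**Figure D3:**
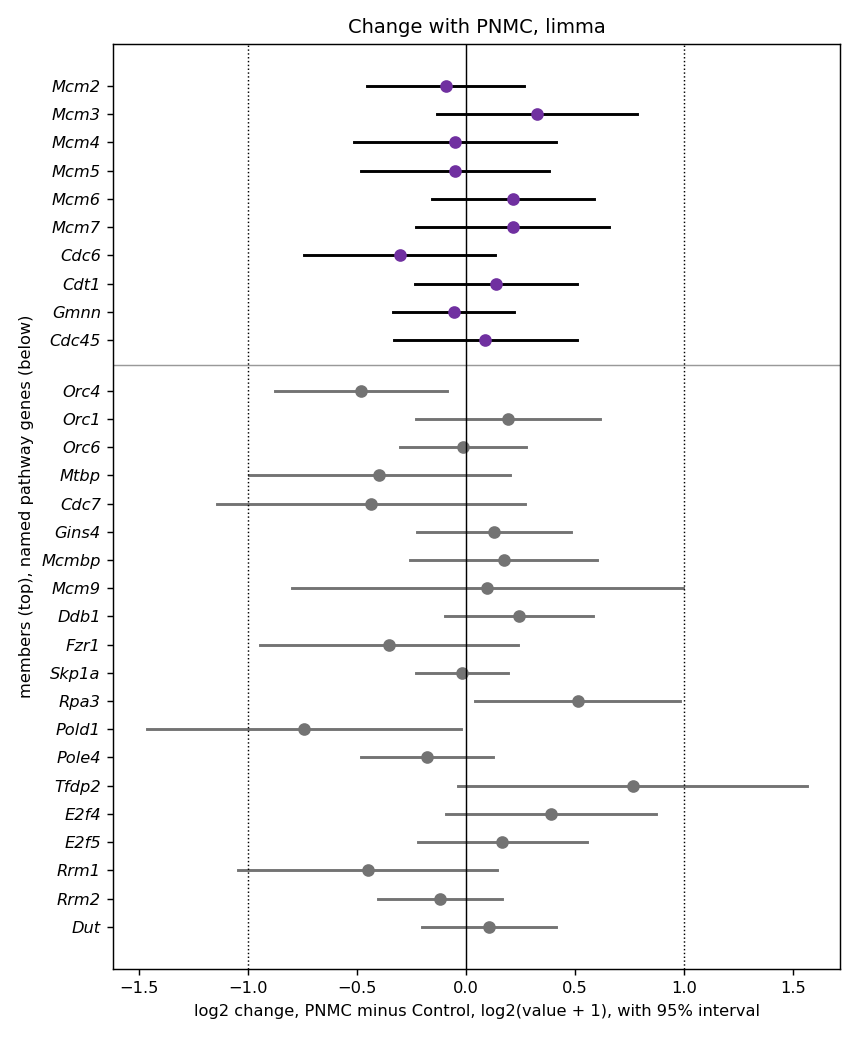
Log2 change, PNMC minus Control, on the log2(value + 1) scale (points) with limma's 95% interval (lines) for the 10 licensing genes (top) and the named genes of 7 replication lists (below); dotted lines mark a change of 1 either way. Every interval of a licensing gene crosses 0 and stays inside the dotted lines, from -0.74 at the low end of Cdc6 to 0.78 at the high end of Mcm3.

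The other genes of the replication pathway were examined in 7 lists of 94 names, of which 93 were in the table and 87 were tested. Of these, 0 passed an adjusted limma p of 0.05 in either direction. At an unadjusted limma p under 0.05, Rpa3 (1 gene) was higher, where 1.73% of all genes were, and Orc4 and Pold1 (2 genes) were lower, where 3.27% of all genes were. PNMC and Control values did not overlap in 17 of the 87, or 19.5%, close to the 19.9% of all genes, with 9 above and 8 below. By mean log2 value, the sense of higher and lower in the counts that follow, 43 were higher and 44 lower, and the median log2 change was -0.00477.

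The origin recognition complex, the platform on which Cdc6 and Cdt1 act, was present in all 6 subunits. Orc4 had signals of 35.0, 30.3 and 28.2 in PNMC libraries, against 43.4 and 44.4 in Control libraries. All 3 PNMC libraries lay below both Control libraries, as in 11.9% of all genes, and the log2 change was -0.48 (SE 0.184), which did not pass (adjusted p = 0.967 by limma). The change of Orc4 ranged from -0.57 to -0.42 with 1 library left out. The other subunits overlapped between groups: Orc1 averaged 53.1 ± 8.39 in PNMC and 46.5 ± 9.49 in Control libraries, and Orc6 averaged 190.1 ± 21.0 in PNMC and 191.4 ± 3.83 in Control libraries. Orc2 averaged 57.4 ± 11.4 in PNMC and 56.4 ± 6.47 in Control libraries, Orc3 averaged 8.57 ± 1.00 in PNMC and 8.59 ± 0.251 in Control libraries, and Orc5 averaged 166.8 ± 13.5 in PNMC and 157.5 ± 5.58 in Control libraries. The complex had 3 members higher and 3 lower, with a median log2 change of 0.00097.

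The 12 origin firing genes, which turn a loaded ring into a moving helicase, had a median log2 change of -0.04, with 4 higher and 8 lower and 0 past the threshold. Mtbp, a partner of the firing factor Ticrr, averaged 6.47 ± 1.34 in PNMC and 8.75 ± 0.281 in Control libraries, with all PNMC values below. Cdc7, the kinase that phosphorylates the ring, averaged 5.87 ± 2.09 in PNMC and 8.07 ± 1.89 in Control libraries, and the GINS subunit gene Gins4 averaged 60.8 ± 2.18 in PNMC and 55.8 ± 7.51 in Control libraries. Of the MCM and geminin relatives, 3 of 6 were tested, and all 3 had log2 changes above 0, with a median of 0.10. That of Mcm8 was 0.03, although its mean signal was lower in PNMC (1.78 ± 0.909) than in Control libraries (2.22 ± 2.62). Mcmbp, a chaperone of MCM subunits, averaged 23.7 ± 1.13 in PNMC and 20.95 ± 1.79 in Control libraries, while Mcm9, a helicase relative with a part in repair, averaged 3.31 ± 1.86 in PNMC and 2.77 ± 0.652 in Control libraries. The log2 change of Mcm9 was -0.19 without PNMC 3 and 0.49 without PNMC 2, so its sign rests on single libraries. The geminin relative Mcidas, a gene of multiciliated cells, was listed at 0 in every library.

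Genes that control licensing through protein decay and cyclin-dependent kinases numbered 16 tested, with 6 higher and 10 lower and a median log2 change of -0.02. Ddb1, the adaptor of the ubiquitin ligase that removes Cdt1 during S phase, averaged 133.9 ± 22.3 in PNMC and 112.1 ± 6.79 in Control libraries, with a log2 change of 0.24 that was 0.11 without PNMC 3. Fzr1, an activator of the anaphase-promoting complex that targets geminin, averaged 8.10 ± 1.05 in PNMC and 10.8 ± 3.37 in Control libraries. Skp1a, a ubiquitin ligase subunit, averaged 775.4 ± 10.2 in PNMC and 788.1 ± 61.3 in Control libraries.

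Among 27 replication fork genes, 14 were higher and 13 lower, with a median log2 change of 0.03. Rpa3, a subunit of the protein that coats single-stranded DNA, had signals of 31.3, 33.1 and 25.2 in PNMC libraries and 17.3 and 24.2 in Control libraries, a log2 change of 0.51 (adjusted p = 0.967 by limma). Its PNMC values lay above both Control values, though PNMC 3 and Control 2 differed by less than 1 unit, and the log2 change was 0.28 without Control 1 and 0.74 without Control 2. Pold1, the catalytic subunit of DNA polymerase delta, had signals of 1.97, 3.11 and 2.32 in PNMC libraries and 4.21 and 5.38 in Control libraries, a log2 change of -0.75 (adjusted p = 0.982 by limma). Pole4, an accessory subunit of polymerase epsilon, averaged 200.9 ± 13.1 in PNMC and 229.7 ± 43.3 in Control libraries.

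**Figure D4:**
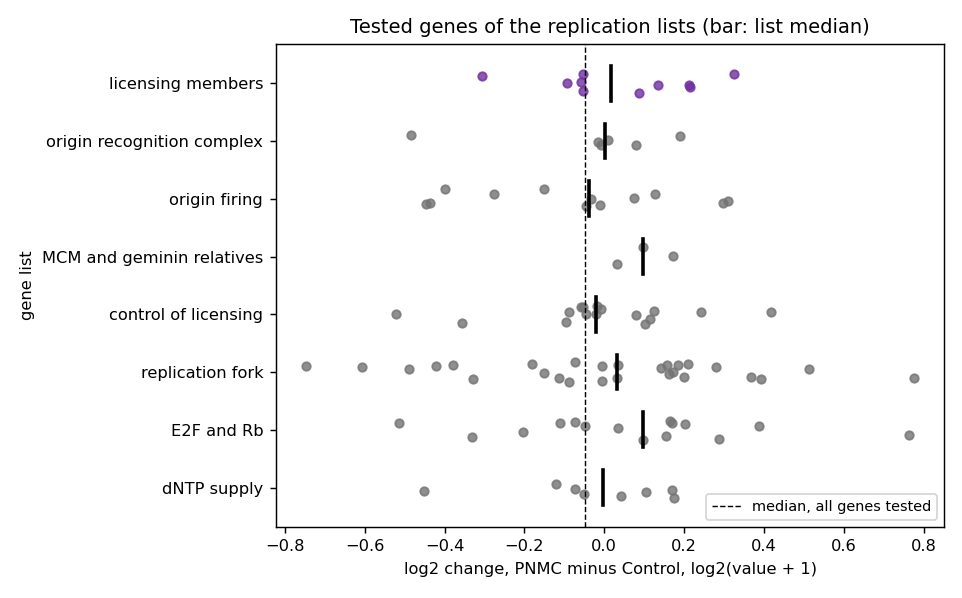
Log2 change, PNMC minus Control, on the log2(value + 1) scale for each tested gene (points) of the licensing members and 7 replication lists, with the median of each list (bars) and of all genes tested (dashed line, -0.05). List medians lie between -0.04 and 0.10, and the licensing members span -0.31 to 0.33.

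E2F transcription factors and their Rb-family partners, which in many cell types govern the transcription of licensing genes, had 15 of 18 genes tested, 9 higher and 6 lower, with a median log2 change of 0.10. Tfdp2, a dimerisation partner of E2F proteins, averaged 3.74 ± 1.43 in PNMC and 1.70 ± 0.189 in Control libraries (log2 change 0.76, limma adjusted p = 0.986). E2f4 averaged 21.2 ± 1.32 in PNMC and 16.2 ± 3.98 in Control libraries, and E2f5 averaged 42.0 ± 4.70 in PNMC and 37.2 ± 1.20 in Control libraries. The PNMC values of Tfdp2 and E2f4 lay above both Control values, as in 7.97% of all genes tested. Those of E2f7 lay below both, as in 11.9% of all genes. E2f7 averaged 3.45 ± 0.741 in PNMC and 5.30 ± 0.112 in Control libraries, a log2 change of -0.51. Genes of nucleotide supply had 4 higher and 4 lower of 8, with a median of -0.00385. The ribonucleotide reductase gene Rrm1 averaged 12.7 ± 3.64 in PNMC and 17.4 ± 3.76 in Control libraries, and its partner Rrm2 averaged 131.6 ± 6.04 in PNMC and 143.04 ± 0.718 in Control libraries. Dut, which removes dUTP, averaged 143.8 ± 10.4 in PNMC and 133.9 ± 17.0 in Control libraries. As common references, Actb averaged 116.6 ± 25.4 in PNMC and 135.0 ± 26.3 in Control libraries, and Gapdh averaged 1.21 ± 0.188 in PNMC and 1.36 ± 0.0197 in Control libraries. The signal of Gapdh lay near the filter's minimum of 1, so it is no usable standard of level here.

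The promoters of some members share short motifs. RefSeq promoter windows on GRCm38.p6, of 250 bases before and 50 after each start, were at hand for 8 of the 10 members, in 9 windows. The E2F-type motifs TTTGGCGC, TTTCGCGC, TTTCCCGC and TTTGCCGC were searched on both strands, and overlapping matches were kept. They occurred in the windows of 6 members, Mcm3, Mcm5, Mcm6, Mcm7, Cdc6 and Cdt1, and in 2.26% of all 32851 windows. A match lay before the start in 4 members, Mcm5, Mcm6, Mcm7 and Cdc6, and in 1.86% of all windows. In Mcm3 and Cdt1 the matches lay after the start only. The 80 bases around the match nearest to the start are shown for Mcm5 and Mcm6, where they lie before the start and overlap no RefSeq gene. Capitals mark the motif, and in Mcm5 matches on both strands overlap.
Mcm5, chr8:75109324-75109403, + strand: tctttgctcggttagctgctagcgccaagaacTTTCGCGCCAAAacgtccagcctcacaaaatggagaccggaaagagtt
Mcm6, chr1:128359709-128359788, - strand: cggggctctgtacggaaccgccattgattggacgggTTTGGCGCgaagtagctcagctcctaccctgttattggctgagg
In Mcm6 another pair of overlapping matches lies farther upstream. Mcm2 and Cdc45 had none of these letters in their windows. The 6 members with an E2F-type match had log2 changes of both signs, from -0.31 for Cdc6 to 0.33 for Mcm3. CCAAT, on either strand, occurred in 7 of the 9 windows and in 37.4% of all windows.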

How the data were processed

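The authors deposited 1 table of normalised signal for 32285 gene symbols in 5 libraries. Its unit is not stated, and the values are fractional and never negative. Per the submitters' processing notes, the build was GRCm39 and the tools were DESeq2 1.16.1, HTSeq, HISAT2 2.0.5 and Trimmomatic. Neither the annotation nor the tool behind the deposited signal is stated. Low values showed no common step, so depth is unknown and neither a count test nor a counting interval was used. Columns were matched to samples by title. The 12734 genes that reached 1 in 2 or more libraries were transformed to log2(value + 1), which understates changes of low genes. PNMC and Control were compared with limma 3.58.1 (R 4.3.3; mean-variance trend, robust variances, no covariate), with Benjamini-Hochberg adjustment over all genes tested and a threshold of 0.05. The procedure was tested on simulated data.

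Members and gene lists were chosen with earlier results of these data known. Named genes were the 10 members, from each list the 2 with the smallest p and the one with the highest mean, the subunits of the origin recognition complex, Actb and Gapdh; any others are given as examples or markers. Alternatives were another pseudocount, filter, scaling, variance model, a replicate block and leaving out each library. Promoter sequences are RefSeq's on GRCm38.p6, another build than the authors', and were matched by symbol. Overlapping genes were taken from GENCODE M21.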

Additional observations from a re-analysis of the deposited data

How the results depend on the processing

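The count of members past the threshold was 0 under all 12 alternatives. The count over all genes was 0 in each of them but one: it ranged from 0 to 1 with 1 library left out, and the single gene, Gm13103, passed without PNMC 1 (limma adjusted p = 0.0108). The median log2 change of the members was 0.02 and ranged from -0.10 (without Control 2) to 0.20 (without Control 1) with 1 library left out. The second of these moved by more than the SD of the members' median between libraries within groups, 0.133, and the cause was not tested. Mcm3, Mcm6, Mcm7 and Cdc6 kept their sign in all 12 alternatives, with ranges of 0.22 to 0.41, 0.05 to 0.38, 0.12 to 0.30 and -0.48 to -0.13. The other 6 members changed sign in at least 1 alternative, Mcm5 in 5 of them and Mcm4 in 3. Another filter or variance model cannot alter a log2 change, and the replicate block gave the same changes as leaving out PNMC 3. The alternatives are therefore fewer for signs than their number. With the replicate block, the members' median was 0.08 and 0 members and 0 genes passed. Same-numbered libraries had deviations correlated at -0.0585 and -0.0433, and the crossed pairs had 0.0585 and 0.0433. The deviations of 2 Control libraries mirror each other, so these correlations cannot decide whether the numbers pair the samples. Only 2 pairs exist and PNMC 3 has no partner, so the numbers were not taken to pair the samples. Depth is unknown, and the 2 Control libraries limit the precision.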
